A study of Mus musculus with 12 samples.

Results

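The 10 genes described here belong to the BCL2 family and were taken as a fixed list, matched by mouse symbol to the Ensembl IDs of the count files. The list was chosen with earlier results of these data known, so counts over it are descriptions. All 10 were found among 56748 gene IDs, and all 10 passed the filter on low counts. They are the survival genes Bcl2, Bcl2l1 and Mcl1, the BH3-only genes Bcl2l11, Bmf, Bbc3, Pmaip1 and Bid, and the effector genes Bax and Bak1. They were measured by poly(A) RNA-seq in E_mu-Myc lymphoma, a mouse B cell lymphoma line driven by a Myc transgene under the immunoglobulin heavy chain enhancer. Cells from culture gave 4 libraries. Lymphoma cells sorted from lymph nodes of C57BL/6J mice gave 4 libraries 11 days after injection in the Lymphatic model of dissemination and 4 libraries 18 days after injection in the Hematogenous model. Every group is the same line, and the labels do not give its clonality, the sort gate, or whether replicates are separate mice or cultures. The p-values therefore measure the spread between these samples, which may be technical. Route and day change together between the node groups and cannot be told apart. Against culture, the node, the days in the mouse and the recovery of cells from tissue also change together and cannot be told apart. For cultured libraries the tissue label also reads lymph node, and their titles were followed.

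BCL2 family proteins control the permeability of the outer mitochondrial membrane. BCL2, BCL-XL (Bcl2l1) and MCL1 bind and hold back the effectors BAX and BAK (Bak1), which otherwise form pores, release cytochrome c and start the caspase cascade. BH3-only proteins, among them BIM (Bcl2l11), BMF, PUMA (Bbc3), NOXA (Pmaip1) and BID, signal stress or loss of growth factors by binding the survival proteins, and some also activate BAX and BAK directly. In Eµ-Myc lymphoma this balance is known to matter, because high MYC both drives division and primes cells for apoptosis, so that loss of Bcl2l11 or gain of Bcl2 speeds the disease. Bax, Bbc3 and Pmaip1 are known targets of the tumour suppressor p53, and Bcl2l11 and Bbc3 are known targets of FOXO3.

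RefSeq promoter windows (GRCm38.p6, 250 bases before to 50 after an annotated start) were found for 9 of the 10 genes, with 16 windows in all. Pmaip1 had no window and was not searched. They were searched on both strands for TGTTTAC, the core of the FOXO site, for CACGTG, the E-box bound by MYC and its relatives, and for the p53 site. TGTTTAC occurred in 2 of the 16 windows, 1 of Bcl2l11 and 1 of Bbc3, and in 3.65% of all 32851 windows of the table. CACGTG also occurred in 2 of the 16, 1 of Bax and 1 of Bbc3, and in 7.15% of all windows. The p53 site occurred in 0 of the 16 and in 0.0731% of all windows. At so low a rate a match in 16 windows was unlikely, so its absence says little about p53 sites in these genes. The motifs searched do not overlap each other in these windows, and a match is a run of letters, not a bound site. The 250 bases before the start are printed for the windows of Bcl2l11 and Bbc3 that hold the FOXO core and for that of Bax. These genes are named above as known targets of FOXO3 or p53. The Bbc3 window that holds CACGTG is not printed. Capitals mark TGTTTAC, its reverse complement or CACGTG, and all are written 5′ to 3′ on the gene's strand.
Bcl2l11, chr2:128125788-128126037, plus strand: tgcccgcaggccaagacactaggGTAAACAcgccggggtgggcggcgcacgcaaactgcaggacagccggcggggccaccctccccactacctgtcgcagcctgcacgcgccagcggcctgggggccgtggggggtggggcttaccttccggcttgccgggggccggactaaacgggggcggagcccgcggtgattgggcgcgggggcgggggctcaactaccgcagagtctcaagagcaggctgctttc
Bbc3, chr7:16310011-16310260, plus strand: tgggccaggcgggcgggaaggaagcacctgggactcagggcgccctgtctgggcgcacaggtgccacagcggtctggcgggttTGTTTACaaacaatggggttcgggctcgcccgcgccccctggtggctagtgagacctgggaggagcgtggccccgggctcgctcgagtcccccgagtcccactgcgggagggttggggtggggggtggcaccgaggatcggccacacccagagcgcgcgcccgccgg
Bax, chr7:45466899-45467148, minus strand: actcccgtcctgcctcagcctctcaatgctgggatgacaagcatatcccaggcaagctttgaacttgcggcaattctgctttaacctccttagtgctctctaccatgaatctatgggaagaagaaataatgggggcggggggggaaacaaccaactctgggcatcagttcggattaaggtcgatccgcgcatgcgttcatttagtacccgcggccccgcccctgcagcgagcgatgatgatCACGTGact
The FOXO core lies 227 bases before the start in the Bcl2l11 window and 167 bases before it in the Bbc3 window. The Bax window holds CACGTG 9 bases before the start and again 36 bases after it.

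Assigned counts ran from 5286775 to 25302016 per library, and 13535 genes were tested. Levels are given as CPM, counts relative to library size scaled by TMM, a factor that corrects for library composition, and differences as log2 with an approximate SE from edgeR. A gene is said to have risen or fallen where its Benjamini-Hochberg adjusted p over all tested genes was under 0.05. Lymphatic 4 stood apart from the other libraries, with 15.9% of its counts in ribosomal protein genes against 7.59% to 9.85% elsewhere. Relative to the mean of all libraries, the shortest quintile of transcripts in it lay 1.41 log2 above the longest quintile, against −0.22 to 0.06 elsewhere. Summed over 8 genes, B cell markers ran from 2729 to 3112 CPM in lymphatic, 2987 to 3023 in culture and 3714 to 3913 in hematogenous libraries. The 9 T cell markers summed to 0 to 0.545 CPM in culture, 18.5 to 81.1 in the lymphatic group and 4.98 to 14.9 in the hematogenous group, with the highest sum in lymphatic 4 and with Trbc2, Cd3d and Cd4 at 0 counts in culture. The 9 myeloid markers summed to 14.8 to 19.9, 27.7 to 70.1 and 19.2 to 26.5 CPM, with Lyz2 at 0 counts in culture. Markers of this list did not move together. Csf1r was at 8.54, 3.76 and 1.49 CPM and Itgam at 4.89, 0.535 and 0.810 in the culture, lymphatic and hematogenous groups. The 6 NK cell markers, in culture nearly all Klrb1c, summed to 18.8 to 22.7 CPM in culture, 0.744 to 6.13 in the lymphatic group and 0.190 to 1.35 in the hematogenous group. The 8 stromal and endothelial markers, mostly Pecam1 and with Ccl21a at 0 counts in all 12 libraries, summed to 75.8 to 80.7, 80.2 to 115 and 140 to 168 CPM. The 6 erythroid markers summed to 11.3 to 29.9, 2.30 to 15.1 and 3.12 to 6.36 CPM, and the 5 plasma cell markers to 335 to 355, 348 to 494 and 370 to 441. The erythroid sum in culture was nearly all Hbb-bt (means of 17.2, 2.20 and 1.76 CPM in the 3 groups). Hba-a1, Hba-a2 and Hbb-bs were at 0 to 0.0389 CPM in culture and higher in both node groups. The plasma cell sum was mostly Irf4 (233, 346 and 333 CPM), while Sdc1 was at 29.1, 24.4 and 11.8 and Xbp1 at 80.5, 74.9 and 58.7. The part of the transcripts of other cell types in the differences below was not tested.

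Against culture, both node groups held more Bcl2l1 and Bid and less Pmaip1. They went apart in Bcl2, which fell in the lymphatic and rose in the hematogenous group, and in Bmf, which fell in the lymphatic group and was at 24.2 ± 10.1 CPM in the hematogenous group against 26.6 ± 2.28 in culture (SD, n = 4). Bcl2l11, Mcl1 and Bcl2 rose and Bax fell in the hematogenous group. In the lymphatic group 2 of the 10 rose and 3 fell, where 13.4% and 13.0% of all tested genes did, 26.4% together. In the hematogenous group 5 rose and 2 fell, where 13.9% and 13.9% of all genes did, 27.8% together. Between the node groups 1 member, Pmaip1, was higher in the lymphatic group and 3, Bcl2, Bcl2l11 and Bmf, were lower, where 11.4% and 10.9% of all genes were, 22.3% together. The median log2 difference of the 10 was −0.004 for lymphatic and 0.35 for hematogenous against culture, and −0.16 for lymphatic against hematogenous, beside medians of 0.04, −0.001 and 0.03 over all genes. Both comparisons against culture use the same 4 culture libraries, so their shared directions are not independent. In every comparison the called members are also those whose groups did not overlap in CPM, as was the case for 30.1%, 43.6% and 24.6% of all tested genes. In bulk libraries fewer cells that express a gene and less of its RNA per cell cannot be told apart.

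**Figure D1:**
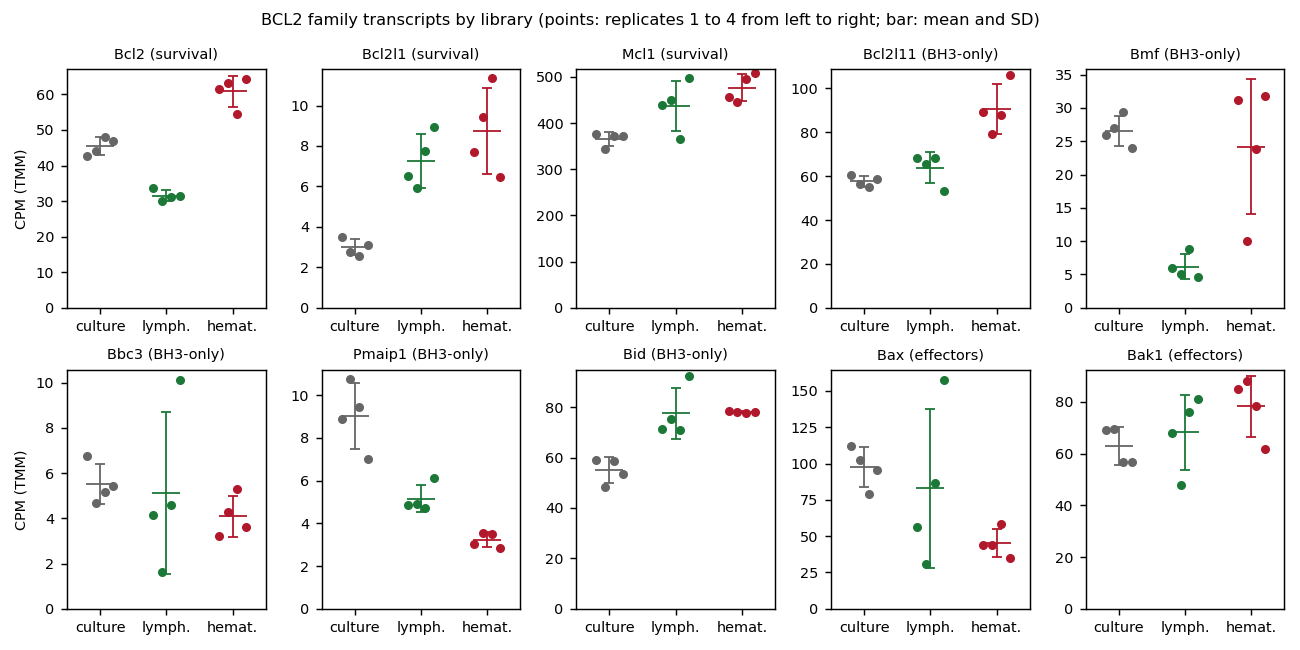
CPM (vertical axes, from 0) of the 10 genes in every library, with points for replicates 1 to 4 from left to right and a bar for the mean and SD of each group. Bcl2 separates all 3 groups, Bmf is low in the 4 lymphatic libraries and in hematogenous 2, and Bax and Bbc3 spread widely among the lymphatic libraries.

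Bcl2, the survival gene named for the B cell lymphoma in which it was found, separated the 3 groups. Culture 1 to 4 held 42.6, 44.0, 48.1 and 47.0 CPM, lymphatic 1 to 4 held 33.8, 29.9, 31.2 and 31.3, and hematogenous 1 to 4 held 61.5, 63.3, 54.5 and 64.2. No library of a group overlapped another group. Bcl2 fell by 0.53 ± 0.102 on the log2 scale in the lymphatic group (adjusted p = 0.00176) and rose by 0.42 ± 0.102 in the hematogenous group (adjusted p = 0.00614). Between the routes the lymphatic group was lower by 1.93-fold (log2 −0.95 ± 0.102, adjusted p = 5.64e-05). With an offset for the GC content and length trend of each library the difference between routes stayed called (log2 −0.68, adjusted p = 0.00536). With that offset the difference from culture was not called for lymphatic (log2 −0.26, adjusted p = 0.247) or for hematogenous libraries (log2 0.42, adjusted p = 0.0531), and with no filter on low counts the hematogenous rise was not called either (adjusted p = 0.0631).

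Bcl2l1, which encodes BCL-XL, was the least abundant survival gene and the member that rose most. Culture libraries held 3.50, 2.78, 2.58 and 3.11 CPM, from only 16 to 45 reads each. Lymphatic libraries held 6.49, 5.90, 7.73 and 8.94 CPM and hematogenous libraries 7.71, 9.43, 11.4 and 6.46, all above every culture library and overlapping each other. The rise was 2.40-fold in the lymphatic (log2 1.26 ± 0.221, adjusted p = 8.26e-04) and 2.91-fold in the hematogenous group (log2 1.54 ± 0.224, adjusted p = 1.31e-04). The routes differed by log2 −0.28, with a 95% interval of −0.72 to 0.16 (adjusted p = 0.347).

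Mcl1, the short-lived survival protein on which many lymphomas depend, was the most abundant member throughout. It stood at 375, 344, 372 and 372 CPM in culture 1 to 4, at 439, 449, 365 and 497 in lymphatic 1 to 4 and at 457, 447, 496 and 508 in hematogenous 1 to 4. Every hematogenous library was above every culture library, and lymphatic 3 lay within the culture range. Mcl1 rose 1.30-fold in the hematogenous group (log2 0.38 ± 0.106, adjusted p = 0.0145), a call lost without culture 2 (adjusted p = 0.0525) and with no filter on low counts (adjusted p = 0.0613). The lymphatic difference was log2 0.26 ± 0.106 (adjusted p = 0.0895), and it was called without lymphatic 3 (log2 0.34, adjusted p = 0.0185).

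Bcl2l11 encodes BIM, a BH3-only protein that binds every survival protein of the family and limits B cell numbers. Culture libraries held 60.7, 56.3, 55.0 and 58.8 CPM, lymphatic libraries 68.4, 65.5, 68.1 and 53.3, and hematogenous libraries 89.3, 79.0, 87.9 and 106. The hematogenous libraries were all above the other 8, and lymphatic 4 was the lowest of the 12. Bcl2l11 rose 1.57-fold in the hematogenous group against culture (log2 0.65 ± 0.118, adjusted p = 8.55e-04). The lymphatic group was lower than the hematogenous group by log2 −0.50 ± 0.117 (adjusted p = 0.00771), a call lost when only those 8 libraries were fitted (adjusted p = 0.0516). Lymphatic against culture gave log2 0.15 (95% interval −0.11 to 0.40, adjusted p = 0.394), and 0.27 with the GC and length offset (adjusted p = 0.0427).

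Bmf, a BH3-only gene whose protein is held by a dynein light chain until the cell is stressed, showed the largest difference of the 10. Culture libraries held 25.9, 26.9, 29.5 and 23.97 CPM and lymphatic libraries 6.02, 5.15, 8.83 and 4.67, so that every lymphatic library was below the lowest culture library. Bmf fell 4.34-fold in the lymphatic group (log2 −2.12 ± 0.305, adjusted p = 1.79e-04). Hematogenous libraries held 31.2, 10.1, 23.8 and 31.7 CPM, 3 near or above the culture level and hematogenous 2 between culture and lymphatic. The lymphatic group was lower than the hematogenous group by log2 −1.98 ± 0.305 (adjusted p = 5.84e-04). Hematogenous against culture gave log2 −0.14 (95% interval −0.77 to 0.48, adjusted p = 0.772), and 0.12 without hematogenous 2. Among the hematogenous libraries hematogenous 2 also had the highest T cell marker sum, at 14.9 CPM against 4.98 to 7.53. Its B cell marker sum was the highest too, at 3913 CPM against 3714 to 3844. A link between these sums and the Bmf level was not tested.

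Pmaip1 encodes NOXA, which binds MCL1 and speeds its breakdown. Culture libraries held 8.87, 10.8, 9.46 and 7.03 CPM, lymphatic libraries 4.87, 4.91, 4.73 and 6.13, and hematogenous libraries 3.05, 3.54, 3.52 and 2.85. The 3 groups did not overlap. Pmaip1 fell 1.74-fold in the lymphatic (log2 −0.80 ± 0.179, adjusted p = 0.00459) and 2.75-fold in the hematogenous group (log2 −1.46 ± 0.190, adjusted p = 5.04e-05). Between the routes it was higher in the lymphatic group by log2 0.66 ± 0.188 (adjusted p = 0.0225). That last call rests on few reads, 15 to 42 in the hematogenous libraries, and was lost with the replicate block (adjusted p = 0.0509), with no filter (adjusted p = 0.121), in a fit of the 2 groups alone (adjusted p = 0.0553), without hematogenous 1 (adjusted p = 0.073) and without hematogenous 4 (adjusted p = 0.0588).

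Bid, whose protein is cut by caspase-8 and so links death receptors to mitochondria, rose in both node groups. Culture libraries held 59.2, 48.5, 58.8 and 53.6 CPM, lymphatic libraries 71.4, 75.5, 71.1 and 92.4, and hematogenous libraries 78.4, 78.0, 77.6 and 78.1. All 8 node libraries were above all 4 culture libraries. The rise was 1.41-fold in the lymphatic (log2 0.49 ± 0.112, adjusted p = 0.0049) and 1.42-fold in the hematogenous group (log2 0.50 ± 0.112, adjusted p = 0.00378). The routes differed by log2 −0.01, with a 95% interval of −0.25 to 0.23 (adjusted p = 0.972).

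Bbc3, which encodes PUMA, was called in no comparison. Culture libraries held 6.77, 4.69, 5.16 and 5.42 CPM, lymphatic libraries 4.13, 1.64, 4.57 and 10.1, and hematogenous libraries 3.21, 4.29, 5.28 and 3.61. The lymphatic libraries held both the lowest and the highest value of the 12. The log2 differences were −0.12 for lymphatic against culture (95% interval −0.99 to 0.74, adjusted p = 0.852) and −0.43 for hematogenous against culture (−1.33 to 0.47, adjusted p = 0.504), and 0.31 for lymphatic against hematogenous (−0.57 to 1.19, adjusted p = 0.622), intervals too wide to show a moderate change.

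The effectors did not move together. Bax, a p53 target whose protein moves from the cytosol to mitochondria, stood at 112, 102, 79.3 and 95.4 CPM in culture 1 to 4, at 56.6, 30.8, 86.9 and 158 in lymphatic 1 to 4 and at 43.7, 43.8, 58.0 and 34.8 in hematogenous 1 to 4. Every hematogenous library was below every culture library, while the lymphatic libraries again held the lowest and the highest value. Bax fell 2.15-fold in the hematogenous group (log2 −1.11 ± 0.362, adjusted p = 0.0345). The lymphatic difference was log2 −0.23 ± 0.355 (adjusted p = 0.676), and −0.76 without lymphatic 4 (adjusted p = 0.0255). Bak1, whose protein sits in the mitochondrial membrane, stood at 69.0, 69.7, 56.7 and 56.8 CPM in culture 1 to 4, at 68.1, 48.1, 76.2 and 81.1 in lymphatic 1 to 4 and at 85.2, 88.1, 78.4 and 61.7 in hematogenous 1 to 4, and its groups overlapped. It was not called in any comparison (log2 0.12 for lymphatic and 0.32 for hematogenous against culture, −0.20 between the routes, adjusted p = 0.648, 0.181 and 0.397). With the GC and length offset it was called in all 3 (log2 0.25, 0.50 and −0.24, adjusted p = 0.0302, 2.58e-04 and 0.034), and against culture for the hematogenous group in a fit of those 2 groups alone (adjusted p = 0.0146).

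The Bax call was the least steady of the 10. It was lost with limma-voom (adjusted p = 0.0541), with the replicate block (adjusted p = 0.0501) and without any of culture 1, culture 2, culture 4, hematogenous 1, hematogenous 2 or hematogenous 4 (adjusted p = 0.0606 to 0.0976). Bax and Bbc3 transcripts are short and rich in GC, at 1100 and 1814 bases and 63.5% and 65.2% GC, and both are in the top quintile of tested genes by GC. Bak1 (57.1% GC) and Bcl2l1 (55.9% GC) are in that quintile too. Within the lymphatic group all 4 genes were lowest in lymphatic 2 and highest in lymphatic 4. Against culture in the hematogenous group Bax fell, Bcl2l1 rose, and Bbc3 and Bak1 were not called. The median of the GC-rich quintile minus that of the GC-poor quintile, relative to the mean of all libraries, was log2 −0.75 in lymphatic 2 and 0.41 in lymphatic 4. These libraries held the lowest and highest Bax and Bbc3 of all 12. This GC trend was 0.292, 0.284, −0.024 and 0.067 in culture 1 to 4 and 0.035, 0.032, −0.047 and −0.27 in hematogenous 1 to 4. By length Bax is in the shortest quintile and Bbc3 and Bak1 are in the next, and lymphatic 4 also had the length trend of 1.41 given above. The parts of the GC and length trends in the Bax difference were not tested beyond the offset fit. With an offset for GC and for length, Bax in the hematogenous group was log2 −0.73 against culture (adjusted p = 0.00139), and lymphatic against hematogenous became log2 0.46 (adjusted p = 0.0298) from 0.88 (adjusted p = 0.0956). That difference between the routes was 0.34 without lymphatic 4 (adjusted p = 0.325) and 1.15 without lymphatic 2, where it was called (adjusted p = 0.0107).

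**Figure D2:**
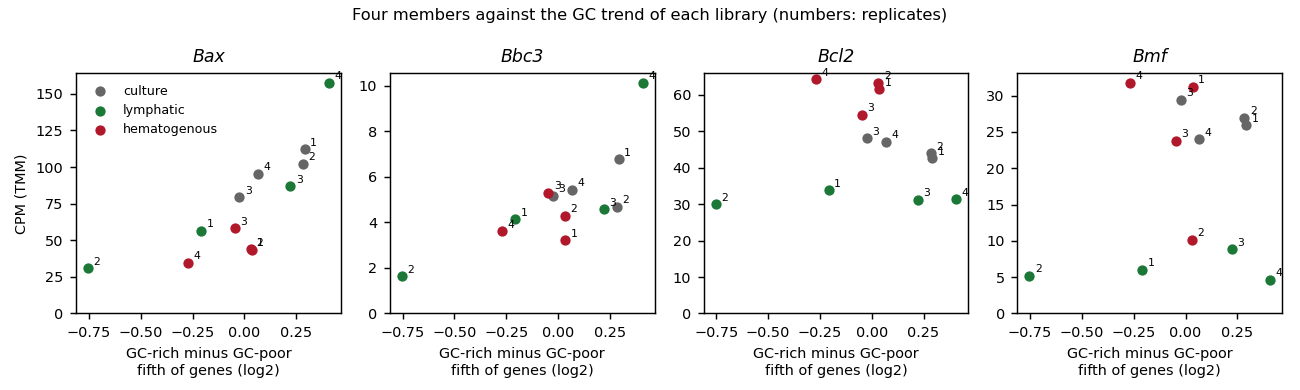
CPM (vertical axes, from 0) of Bax, Bbc3, Bcl2 and Bmf in each library against the median log2 level of the GC-rich quintile of genes minus that of the GC-poor quintile (horizontal axes), with the replicate number beside each point. Bax and Bbc3 are lowest in lymphatic 2, at −0.75, and highest in lymphatic 4, at 0.41. The 4 lymphatic libraries hold 29.9 to 33.8 CPM of Bcl2. The length trend is not shown. With the GC and length offset the Bcl2 difference of the lymphatic group from culture was log2 −0.26 and not called, from −0.53 without it.

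**Figure D3:**
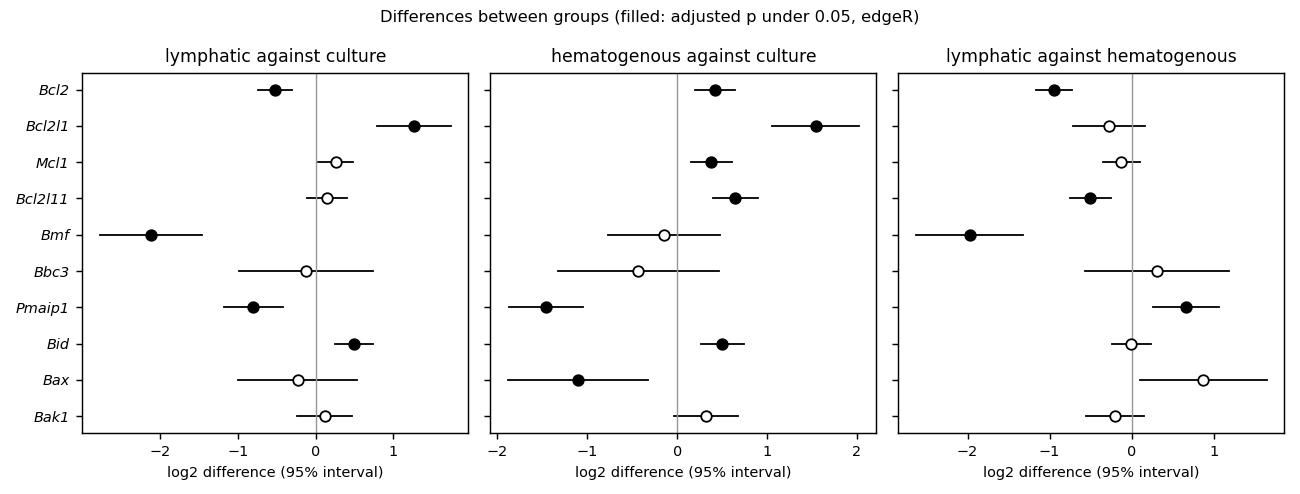
Log2 difference with its 95% interval (horizontal axes) of each gene in the 3 comparisons, filled where the adjusted p was under 0.05. Bcl2l1 and Bid lie above 0 and Pmaip1 below 0 in both comparisons with culture, and Bcl2, Bcl2l11 and Bmf lie below 0 between the routes.

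Levels of different genes were compared per exon length, as TPM, the length-scaled share of a library, computed from the counts. The length was the union of exons, 1576 bases for Bax and 2407 for Bak1. Their longest transcripts have 1100 and 2387 bases, and those of Bcl2l1 and Bcl2l11 are also shorter than their unions. Orders, shares and ratios between genes depend on this choice, and other lengths were not tried. Mcl1 stood at 347 ± 14.3 TPM in culture, 374 ± 46.2 in the lymphatic group and 449 ± 19.9 in the hematogenous group, above 97.2%, 97.3% and 97.9% of tested genes. Its share of the summed TPM of the 3 survival genes was 95.02% ± 0.191, 96.2% ± 0.523 and 94.2% ± 0.478. Bcl2l1 was the lowest of the 10 in culture, at 2.11 ± 0.242 TPM and above 13.5% of tested genes. In hematogenous libraries it stood at 6.12 ± 1.46 TPM, above 27.3%.

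In culture the order was Mcl1, Bax (200 ± 24.8 TPM), Bak1 (84.8 ± 8.59), Bid (50.2 ± 4.00), Bcl2l11 (23.3 ± 0.788), Bmf (16.4 ± 1.497), Bcl2 (16.1 ± 1.28), Pmaip1 (10.7 ± 1.86), Bbc3 (8.38 ± 1.12) and Bcl2l1. Only Bmf and Bcl2, and Pmaip1 and Bbc3, overlapped with their neighbour there. In lymphatic libraries Bmf was last, at 3.54 ± 1.45 TPM, and all neighbours from Bcl2 down to Bmf overlapped, as did Bax with Bak1 and Bak1 with Bid. In hematogenous libraries Pmaip1 was last, at 3.82 ± 0.443 TPM, and Bak1 (105 ± 17.5 TPM) came before Bax (91.8 ± 18.6 TPM), an order that depends on the length used. Neighbours overlapped there from Bak1 to Bid and from Bcl2 to Bcl2l1.

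Within each library, Bax made up 70.1% ± 1.78 of the summed TPM of the effectors in culture, 60.9% ± 10.9 in the lymphatic group and 46.6% ± 4.52 in the hematogenous group. Bmf made up 15.0% ± 1.18, 3.38% ± 1.16 and 11.0% ± 4.15 of the 5 BH3-only genes, and Bid 46.0% ± 2.19, 61.9% ± 2.91 and 53.8% ± 3.90. The ratio of Bcl2l11 to Bcl2 TPM was log2 0.54 ± 0.129 in culture, 1.20 ± 0.170 in the lymphatic group and 0.76 ± 0.183 in the hematogenous group, and the lowest lymphatic value of 0.96 was above the highest hematogenous value of 0.91. The ratio of Bax to Bcl2l1 TPM was log2 6.56 ± 0.124 in culture and 4.83 ± 0.734 and 3.92 ± 0.123 in the lymphatic and hematogenous libraries, with no overlap of either with culture. These shares and ratios are descriptions of transcripts and were not tested. Lymphatic 4, with its length trend, had the highest Bax share of all libraries, at 74.8%.

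**Figure D4:**
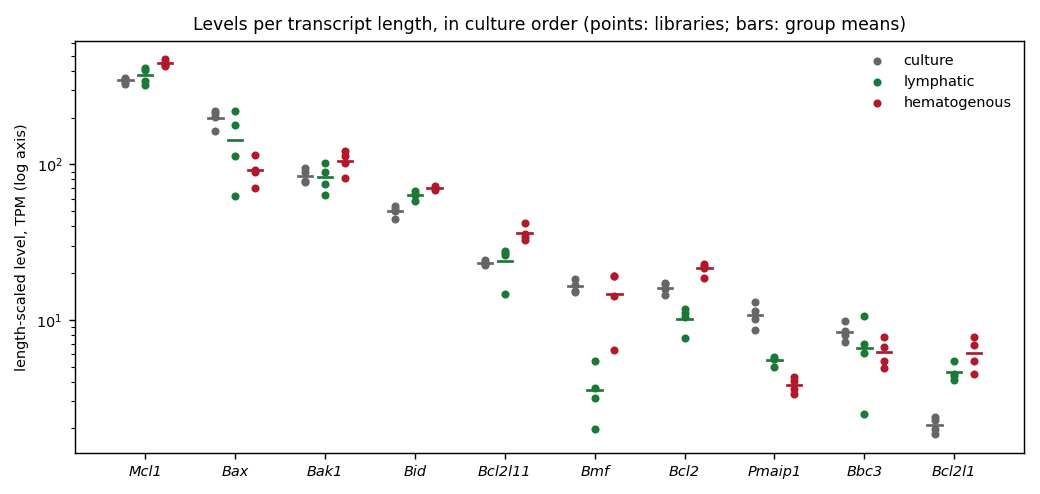
Length-scaled levels in TPM on a log axis, with points for libraries and bars for group means, ordered by the culture mean. Mcl1 lies far above the other survival genes in every group, and Bmf moves from 16.4 TPM in culture to 3.54 TPM in lymphatic libraries.

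The genes whose log2 CPM over the 12 libraries was most like that of a called member, out of 10397 compared, were Irf2 and Myadm for Bcl2 (Pearson r = 0.973 and 0.970), Cmtm6 and Syde1 for Bcl2l1 (0.971 and 0.965) and Ogfrl1 and Lypla1 for Mcl1 (0.975 and 0.973). For the BH3-only genes they were Nlrc4 and Rnf145 for Bcl2l11 (0.975 and 0.967), Galns and Trim16 for Bmf (0.984 and 0.960), Pcgf2 and Ptpn7 for Pmaip1 (0.977 and 0.972) and Gpr18 and Rtcb for Bid (0.980 and 0.972). For Bax they were Slc35b2 and Zfpl1 (0.973 and 0.972). These values describe likeness across 3 groups of 4 libraries that share depth and composition, and carry no test.

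Among the other BCL2 family and BH3-containing genes, 8 of 16 were tested. In the lymphatic group 0 rose and 2 fell, and in the hematogenous group 1 rose and 2 fell (median log2 0.02 and −0.24). Of all tested genes 13.4% rose and 13.0% fell in the lymphatic and 13.9% and 13.9% in the hematogenous group (median log2 0.04 and −0.001). Between the routes 11.4% were higher in the lymphatic group and 10.9% lower (median log2 0.03). The counts for this and the following lists stand beside these shares, and no list was tested as a set. Bnip3, a BH3-like mitophagy receptor induced by hypoxia, stood at 93.4 ± 7.44 CPM in culture, fell to 46.7 ± 11.7 in the lymphatic group (log2 −0.999 ± 0.190) and to 9.71 ± 2.67 in the hematogenous group (log2 −3.25 ± 0.212, adjusted p = 9.93e-08). Its relative Bnip3l fell by 0.77 ± 0.095 and 1.17 ± 0.096 on the log2 scale. Between the routes both were higher in the lymphatic group, Bnip3 by log2 2.25 ± 0.206 (adjusted p = 2.03e-05) and Bnip3l by 0.41 ± 0.095, a call lost with no filter (adjusted p = 0.0748). These were the 2 of the 8 tested genes that were higher between the routes, and 1 was lower. Bad and Bik, further BH3-only genes, were not called against culture (log2 0.24 and −0.11 for lymphatic, −0.68 and −0.44 for hematogenous).

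Downstream of the mitochondrion, all 15 genes of the apoptosome, the caspases and mitochondrial release were tested. Against culture 4 rose and 1 fell in the lymphatic group and 2 rose and 3 fell in the hematogenous group (median log2 0.26 and 0.01). Of all tested genes 26.4% and 27.8% were called in these comparisons. Casp9, the initiator caspase of the apoptosome, fell in both, from 34.8 ± 3.49 CPM to 20.4 ± 2.03 (log2 −0.78 ± 0.126, adjusted p = 4.70e-04) and 24.8 ± 2.43 (log2 −0.49 ± 0.127, adjusted p = 0.00987). The second call was lost with no filter on low counts (adjusted p = 0.0763). The mitochondrial channel genes Vdac1 (log2 0.63 ± 0.120) and Vdac2 (0.51 ± 0.120), the second of which encodes a partner of BAK, rose in the lymphatic group. With the GC and length offset Vdac2 was log2 0.29, still called.

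Casp2 rose (log2 0.54 ± 0.113) and the protease gene Htra2 fell (log2 −0.80 ± 0.170) in the hematogenous group. Htra2 was log2 −0.45 with the GC and length offset, still called. Between the routes 6 of the 15 were higher in the lymphatic group and 1 lower, where 11.4% and 10.9% of all tested genes were. Among the 6 were Cycs, which encodes cytochrome c (log2 0.70 ± 0.169, adjusted p = 0.00922), Htra2 (0.66 ± 0.169) and Aifm1 (0.52 ± 0.095). Without lymphatic 4 Cycs was log2 0.45, still called. Of 5 inhibitor of apoptosis genes 0 were called in the lymphatic group, and in the hematogenous group Birc3, an NF-kB target, rose from 43.2 ± 3.16 to 88.6 ± 20.7 CPM (log2 1.03 ± 0.170, adjusted p = 3.87e-04) and was the 1 gene called. Of 10 death receptor genes 7 were tested and 0 were called by edgeR in any comparison, among them Casp8 with log2 0.27 and 0.22 against culture (adjusted p = 0.0753 and 0.147) and Cflar with −0.11 and −0.04.

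Of 20 genes that regulate transcription of the family, 19 were tested. In the lymphatic group 0 rose and 6 fell, and in the hematogenous group 0 rose and 5 fell (median log2 −0.05 and −0.08). Of all tested genes 13.4% rose and 13.0% fell in the lymphatic group, and 13.9% and 13.9% in the hematogenous group. Foxo3 fell in the lymphatic group, from 53.3 ± 1.69 to 27.4 ± 3.61 CPM (log2 −0.96 ± 0.130, adjusted p = 1.02e-04), and was lower there than in the hematogenous group, which held 41.6 ± 5.64 CPM (log2 −0.61 ± 0.129, adjusted p = 0.0046). With the GC and length offset Foxo3 was log2 −0.58 against culture (adjusted p = 5.49e-04) and −0.27 between the routes, where the call was lost (adjusted p = 0.0538). Bcl6, a germinal centre repressor known to act on Bcl2 family genes, fell in both groups (log2 −1.87 ± 0.233 and −2.07 ± 0.241). The NF-kB genes Rel (−0.91 ± 0.172) and Nfkb1 (−0.47 ± 0.122) fell in the lymphatic group, and Nfkb1 was also lower there than in the hematogenous group (−0.62 ± 0.122). In the hematogenous group E2f1 (−0.63 ± 0.187), Rela (−0.62 ± 0.199) and Mdm2 (−0.43 ± 0.115), the gene of the p53 ligase, fell. These calls were lost for E2f1 without culture 2 (adjusted p = 0.0569) or hematogenous 1 (0.0667), for Mdm2 with no filter (0.0826), and for Rela with the replicate block (0.0646) or without any of culture 1, culture 2, hematogenous 1, hematogenous 3 or hematogenous 4 (0.0528 to 0.0979). With the GC and length offset E2f1 was log2 −0.36 and Rela −0.30, both still called. Trp53, the p53 gene, was at 173 ± 11.7, 133 ± 14.6 and 163 ± 14.0 CPM in the culture, lymphatic and hematogenous groups. Against culture it fell in the lymphatic group (adjusted p = 0.0209) and was not called in the hematogenous group (adjusted p = 0.639).

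Of 15 genes whose products bind, phosphorylate or turn over family proteins, 2 rose and 2 fell in the lymphatic group and 1 rose and 1 fell in the hematogenous group (median log2 −0.13 and 0.13). Over all tested genes 26.4% and 27.8% were called. Pim1, a kinase that inactivates BAD and is known to work with MYC in lymphoma, rose in both, from 8.77 ± 1.51 CPM to 36.0 ± 10.0 (log2 2.04 ± 0.208, adjusted p = 9.24e-06) and 26.9 ± 3.99 (log2 1.62 ± 0.209, adjusted p = 4.70e-05). Rps6ka1, a kinase of the ERK pathway that marks BIM for breakdown, fell in the lymphatic group (log2 −1.01 ± 0.196). The dynein light chain genes Dynll1 and Dynll2, whose products tether BIM and BMF, differed from culture by 0.55 ± 0.174 and −0.39 ± 0.119 in the lymphatic group. Between the routes 1 of the 15, Dynll1, was higher in the lymphatic group (log2 0.96 ± 0.176, adjusted p = 0.0018). The 4 that were lower there included Rps6ka1, Gsk3b and Tmbim6. Of all tested genes 11.4% were higher and 10.9% lower. The calls of Dynll1 and Dynll2 against culture were lost in 8 and 5 of the 19 alternative fits, and Dynll1 was log2 0.33 without lymphatic 4 and 0.36 with the GC and length offset.

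Of 9 genes of receptors that carry survival signals to B cells 8 were tested, of which 1 rose and 3 fell in the lymphatic group, 4 rose and 1 fell in the hematogenous group, and 4 were lower in the lymphatic than in the hematogenous group with 0 higher (median log2 −0.18, 0.61 and −0.59). Over all tested genes 13.4% rose and 13.0% fell in the lymphatic group and 13.9% and 13.9% in the hematogenous group. Between the routes 10.9% were lower in the lymphatic group and 11.4% higher. Tnfrsf13c, which encodes the BAFF receptor, fell from 63.2 ± 4.20 to 38.6 ± 5.24 CPM in the lymphatic group (log2 −0.71 ± 0.143, adjusted p = 0.00223) and rose to 92.2 ± 16.3 CPM in the hematogenous group (log2 0.54 ± 0.142, adjusted p = 0.0103). The routes differed in it by log2 −1.26 ± 0.143 (adjusted p = 8.27e-05). Tnfrsf13b, which encodes the BAFF and APRIL receptor TACI, was lower in the lymphatic than in the hematogenous group by log2 −1.11 ± 0.128. Il7r, the interleukin 7 receptor gene, was at 48.4 ± 3.73, 61.6 ± 14.5 and 119 ± 50.1 CPM and rose in the hematogenous group (log2 1.29 ± 0.279, adjusted p = 0.00308). Il21r fell in both groups (log2 −1.52 ± 0.221 and −1.51 ± 0.226) and Il4ra in the lymphatic group (−1.01 ± 0.147, and −0.64 with the GC and length offset, still called).

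**Figure D5:**
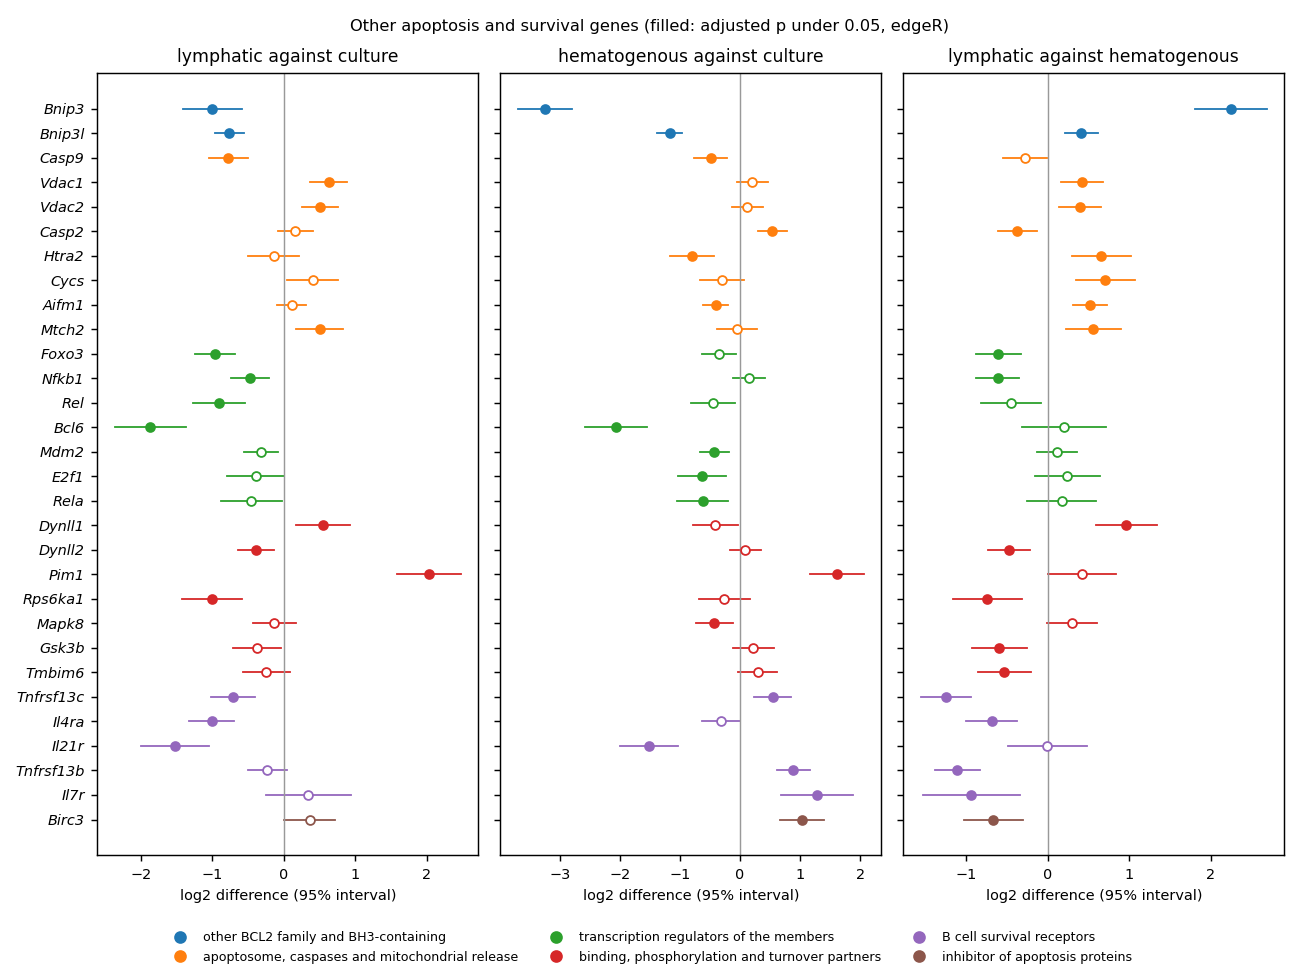
Log2 difference with its 95% interval (horizontal axes) of the other named genes in the 3 comparisons, coloured by list and filled where the adjusted p was under 0.05. Bnip3 has the lowest value against culture in the hematogenous panel, at −3.25, Pim1 the highest in the lymphatic panel, at 2.04, and the BAFF receptor gene Tnfrsf13c lies below 0 in the lymphatic and above 0 in the hematogenous panel against culture.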

How the data were processed

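Poly(A) RNA-seq of 12 mouse libraries, 4 per group, used stranded libraries read from one end, per the labels' protocols. FastQC 0.11.9, Trimmomatic 0.39, HISAT2 2.1.0 and HTSeq 2.0.2 were used on build GRCm39, per the submitters' processing notes. The authors deposited raw counts per gene, without normalization. HTSeq's 5 summary lines, which hold the 30.3% to 36.5% of reads assigned to no gene, stayed out of library sizes and tests. Symbols, exon lengths and GC content came from GENCODE M21, an older annotation (GRCm38), so positions are given only for the promoter windows, in RefSeq's GRCm38.p6. Of the IDs 91.8% matched a symbol, and these held at least 98.8% of counts. Without molecular identifiers, read counts carry more than counting error.

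Counts were filtered with filterByExpr and fitted across all genes with edgeR 4.0.16 in R 4.3.3 (quasi-likelihood F test, TMM, group as the only term, 9 residual degrees of freedom), two-sided. The approximate SE is the size of the log2 difference over the square root of F. The fit was checked on data with known changes. CPM are TMM-scaled, and TPM divide counts by the union of exons. Alternatives were DESeq2 1.42.0, limma-voom (limma 3.58.1), RLE size factors, no filter, only the 2 groups compared, a replicate block and leaving out each library, plus an offset for GC content and length added after the data were seen. The offset is a loess trend per library, for which 98.4% of tested genes had a value.

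Members and lists were chosen with earlier results of these data known. The 10 members are always named. From each other list, up to 4 called genes per comparison with at least 10 CPM in the higher group were taken by size of change, of which those given are examples, and Bad, Bik, Casp8, Cflar and Trp53 are named outside this rule, chosen after their values were seen. Some genes of the lists are not reported here. For each called member the 2 most correlated genes are named. Correlations of deviations between libraries with the same replicate number ran from −0.181 to 0.0919 over 12 pairs, so the numbers were not taken as pairs.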

Additional observations from a re-analysis of the deposited data

Results flagged for a closer look

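Within groups of 4 libraries, 30 sets of CPM values of the members were examined for a library far from the others, and chance alone flags about 1 in 20. Mcl1 in culture 2, at 344 CPM, lay below the other culture libraries by 0.885 of the range of its group. Pmaip1 in lymphatic 4, at 6.13 CPM, lay above the other lymphatic libraries by 0.875 of the range.

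In 4 members the change from culture differed between the node groups, by the edgeR test of lymphatic against hematogenous libraries, which is the difference of the 2 changes. The difference in log2 was −0.95 for Bcl2 (adjusted p = 5.64e-05), −0.50 for Bcl2l11 (adjusted p = 0.00771), −1.98 for Bmf (adjusted p = 5.84e-04) and 0.66 for Pmaip1 (adjusted p = 0.0225). In each of the 4, all libraries of a node group lay on the same side of all libraries of the other. Of all tested genes, 22.3% were called in this comparison, and in 24.6% the 2 node groups did not overlap.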

How the results depend on the processing

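Bcl2l1, Bid and Pmaip1 kept their calls against culture in both node groups in every alternative run, as did Bcl2l11 in the hematogenous group and, in the lymphatic group, Bmf. Of 570 values of members under an alternative, 528 kept direction and call, 19 lost the call, 10 gained it and 13 changed sign. Of the values of the other named genes and markers, 105 lost the call and 0 changed sign. The number of members called was 2 between the routes when only those groups were fitted, and otherwise 3 to 6. With the replicate block the members called were 5, 6 and 3, where 21.9%, 24.7% and 17.1% of all tested genes were, and no other member call was lost to the block than those of Bax against culture and of Pmaip1 between the routes. Genes called over the whole table numbered 6344 for hematogenous against culture and 1734 between the routes with only the 2 groups fitted. Leaving out 1 library gave 3125 to 5930 and 2002 to 4333, highest without lymphatic 4 in both and lowest between the routes without hematogenous 1.

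Signs changed only in differences that were not called. Leaving out 1 library gave −0.75 to 0.19 for Bbc3 and −0.761 to 0.048 for Bax in lymphatic against culture, −0.30 to 0.12 for Bmf in hematogenous against culture, and −0.31 to 0.62 for Bbc3 and −0.11 to 0.033 for Bid between the routes. Bbc3 was 0.065 and 0.079 against culture and −0.014 between the routes with the GC and length offset, and −0.033 between the routes with limma-voom. Bid was 0.009 between the routes when only those groups were fitted. With no filter Bax was called between the routes (log2 0.87, adjusted p = 6.12e-06), and the cause was not tested.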

Other observations

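Several family genes were too low to be tested. The Bcl2a1 genes, which encode an NF-kB-induced survival protein and exist as near-identical copies that can share or lose reads, were at 0 to 0.0288 CPM on average in culture. Bcl2a1b reached 0.643 ± 0.548 CPM and Bcl2a1d 0.401 ± 0.229 CPM in lymphatic and 0.0935 ± 0.139 and 0.227 ± 0.125 CPM in hematogenous libraries. Bcl2l2, the survival gene for BCL-W, was at 0.305 ± 0.163, 0.427 ± 0.120 and 0.568 ± 0.446 CPM in the culture, lymphatic and hematogenous groups. The effector relative Bok had 0 counts in 7 of the 12 libraries, and Bcl2l10 in all 12.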
